A study of Mus musculus with 4 samples.

Results

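The genes described here encode the ligands of transforming growth factor-β (TGFβ), their receptors, and proteins that store or release the ligands. They were chosen by name as Tgfb1, Tgfb2, Tgfb3, Tgfbr1, Tgfbr2, Tgfbr3, Ltbp1, Ltbp2, Itgav and Itgb8, which are 10 of the 33696 gene features in the count matrices. Nuclei came from mouse brain 21 days post-injury (dpi), after photothrombosis, in which light and a dye in the blood close vessels in a small area of cortex. Mice labelled control carried the genotype WT. Mice labelled Cxcl12-cKO carried Col1a2-creER, an inducible Cre recombinase driven in Col1a2-expressing cells such as fibroblasts, together with a floxed Cxcl12 gene. Each genotype was 1 gene expression library with its tag library, made from 1 male and 1 female mouse pooled, and both genotypes were injured. Lesional and parenchymal nuclei were tagged and mixed at 75% and 25%, so region shares were set by the design.

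TGFβ ligands are secreted in a latent form, wrapped in their own propeptide, and can be tethered to the extracellular matrix by latent TGFβ binding proteins. The integrin αvβ8, made of the subunits encoded by Itgav and Itgb8, binds the propeptide of latent TGFβ and can release or expose the ligand, and it is a known activator of TGFβ in the brain. Active ligand binds the receptor encoded by Tgfbr2, which recruits and phosphorylates the receptor encoded by Tgfbr1. That kinase then acts on SMAD proteins. In the brain this signalling is known for keeping microglia in their resting state, and in wounds for the myofibroblast state of fibroblasts.

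Start-site windows of 8 of the 10 genes were found in the RefSeq promoter table (build GRCm38.p6, 250 bases before to 50 after the start). Those of Tgfb1, Tgfb2 and Ltbp2 are shown, because the results below turn on them: the ligand gene Tgfb1 was highest in myeloid-like nuclei, the ligand gene Tgfb2 was high in astrocyte-like and fibroblast-like nuclei, and Ltbp2 was highest in fibroblast-like nuclei and differed between the libraries. They lie at chr7:25686752-25687051 on the plus strand, chr1:186705940-186706239 on the minus strand and chr12:84876442-84876741 on the minus strand, and are written 5′ to 3′ on the strand of the gene. Capitals mark matches to the TATA box TATAAA, the GC box GGGCGG and the E-box CACGTG on either strand.
Tgfb1: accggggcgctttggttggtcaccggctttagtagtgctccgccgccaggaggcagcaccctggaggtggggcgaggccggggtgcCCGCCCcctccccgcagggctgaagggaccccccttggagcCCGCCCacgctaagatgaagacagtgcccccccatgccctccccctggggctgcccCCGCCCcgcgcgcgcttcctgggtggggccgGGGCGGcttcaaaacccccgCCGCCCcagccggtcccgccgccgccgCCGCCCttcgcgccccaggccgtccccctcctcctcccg
Tgfb2: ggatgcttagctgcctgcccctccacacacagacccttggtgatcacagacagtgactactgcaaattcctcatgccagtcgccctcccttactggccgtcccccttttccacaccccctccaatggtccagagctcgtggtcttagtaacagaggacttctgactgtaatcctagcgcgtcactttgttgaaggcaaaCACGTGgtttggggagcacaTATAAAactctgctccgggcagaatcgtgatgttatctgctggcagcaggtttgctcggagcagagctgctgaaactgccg
Ltbp2: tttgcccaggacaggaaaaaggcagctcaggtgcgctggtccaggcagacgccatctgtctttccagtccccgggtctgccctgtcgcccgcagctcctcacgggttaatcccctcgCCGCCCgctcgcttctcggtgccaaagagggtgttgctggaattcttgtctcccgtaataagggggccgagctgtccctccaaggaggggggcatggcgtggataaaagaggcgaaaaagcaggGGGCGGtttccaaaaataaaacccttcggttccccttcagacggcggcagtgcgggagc

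The windows differed in composition. That of Tgfb1 was 77% G or C and held 6 GC boxes with no TATA box or E-box. The window of Tgfb2 was 54.3% G or C and held 1 TATA box and 1 E-box with no GC box. For Ltbp2 the share was 61%, with 2 GC boxes and neither of the other motifs. Over all 32851 windows of the table, 13.62% held TATAAA, 35.66% held GGGCGG and 7.15% held CACGTG. Among the other members, Itgav had 1 GC box, Tgfbr1 had 2 in 1 of its 2 windows, and Tgfbr2, Ltbp1 and Itgb8 had no match. The matches describe these letters and are not shown to be sites in use. Tgfb3 and Tgfbr3 had no window in the table.

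Of 23489 barcodes, 21743 nuclei passed the filters. The control library kept 8095 lesional and 2877 parenchymal nuclei, and the library labelled Cxcl12-cKO (the cKO-labelled library) kept 7933 and 2838. Medians were 2962 and 2975 UMIs (unique molecular identifiers, each 1 counted transcript) in lesional nuclei of the libraries and 15920 and 16650 in parenchymal nuclei. The libraries shared 47 barcodes and regions of a library shared 0. Cxcl12, the targeted gene, was at 106 UMIs per 1000000 (CPM) in lesional fibroblast-like nuclei of the control library and at 215 in the cKO-labelled library, higher in both of its mice (264 and 187) than in the control mice (101 and 108). Which part of Cxcl12 is deleted was not stated in these sources, and 3′ counts outside a deleted part check nothing. Genotype is therefore written as the label of the library. An exchange of the labels would turn the sign of every ratio between libraries given below, and was not tested.

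Levels are a gene's UMIs over the UMIs of all nuclei of a class, as CPM, given for control first and the cKO-labelled library second unless stated. Intervals are 95% exact Poisson intervals, and those of log2 ratios are exact conditional intervals. Both cover counting error alone. With 1 library per genotype there was no replicate library and no test was made. Nuclei were assigned to the female or male mouse of a library by sex-linked genes, which gave values for 4 mice, but mice of a genotype shared a library and nuclei carrying both kinds of UMI made up 10.95% of the total. Counts near the 3′ end are not per transcript length, so each gene is compared across classes and not with other genes. Classes were named "-like" from marker lists. Across all barcodes the members had from 2285 UMIs (Tgfb3) to 23100 (Tgfbr1).

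Each member had its own pattern over the 10 lesional classes with at least 30 nuclei in both libraries. The class with the highest level was the same in both libraries for 8 of 10 members, the exceptions being Tgfb2 and Tgfbr2. The share of all genes that keep their highest class, state or subcluster was not computed, here or below. Myeloid-like nuclei were highest for Tgfb1, Tgfbr1 and Itgav, fibroblast-like nuclei for Tgfbr3, Ltbp1 and Ltbp2, astrocyte-like nuclei for Itgb8, and osteoblast-lineage-like nuclei for Tgfb3. The interval of the highest class lay above that of the next class in both libraries for Tgfbr1, Ltbp2 and Itgb8, and in the control library alone for Tgfb3 and Itgav. For the other members the leading classes overlapped in their intervals.

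**Figure D1:**
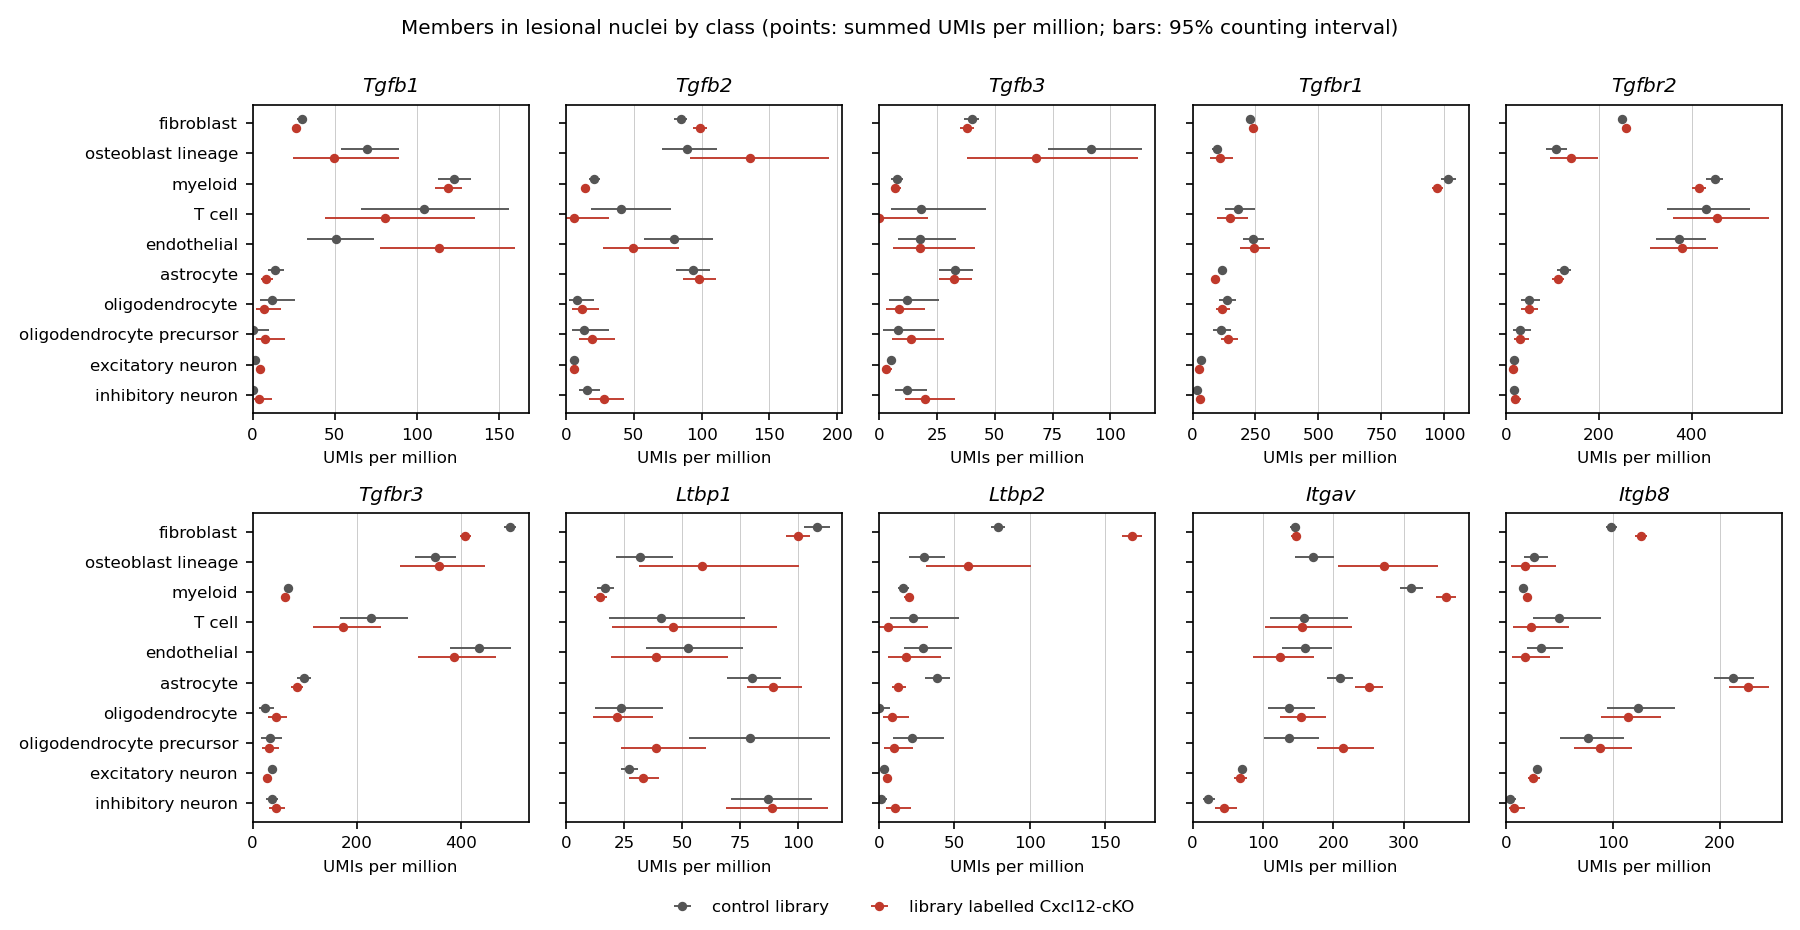
Level in CPM of each member (x axis, from 0) in lesional nuclei by class (y axis), for the control library (grey) and the library labelled Cxcl12-cKO (red), with bars for the 95% counting interval. Tgfbr1 in myeloid-like nuclei (1017 and 974) lies far above its level in the other classes, and for Ltbp2 in fibroblast-like nuclei (79.0 and 168) the intervals of the libraries lie apart.

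Tgfb1, the ligand most studied in wound fibrosis, was highest in myeloid-like nuclei. Its level there was 123 CPM (113 to 133) in the control library and 119 (111 to 127) in the cKO-labelled library, with 124 and 118 in the female and male control mice and 128 and 117 in the cKO-labelled mice. The intervals of T-cell-like nuclei (104 and 80.6) overlapped with these in both libraries, and those of endothelial-like nuclei (50.6 and 113, from 26 and 32 UMIs) in the cKO-labelled library alone. Fibroblast-like nuclei had 30.1 (27.3 to 33.1) and 26.5 (23.9 to 29.2), which is 24.5% and 22.2% of the myeloid level and outside its intervals. Osteoblast-lineage-like nuclei had 69.65 and 49.75. Astrocyte-like nuclei had 13.4 and 8.08, and excitatory-neuron-like nuclei 1.76 and 4.32. Tgfb1 had no UMI in lesional inhibitory-neuron-like nuclei of the control library, which allows up to 2.62 CPM at 3 counts.

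At 1000 UMIs drawn per nucleus, Tgfb1 was detected in 10.9% and 11.3% of myeloid-like nuclei, whose median depth was 2174 and 2376 UMIs. In lesional excitatory-neuron-like nuclei, which should have little of it and had medians of 13890 and 12190 UMIs, the share was 0.189% in the control library and 0 in the other. Without that thinning, myeloid-like shares were 23.8% and 26.1%. The myeloid share of Tgfb1 was thus far above the neuronal one at equal depth.

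Tgfb2, the ligand that relies most on the co-receptor betaglycan, had a wider set of high classes. Astrocyte-like nuclei had 93.3 (81.5 to 106) and 98.1 (86.5 to 111) CPM, and fibroblast-like nuclei had 84.7 (80.0 to 89.6) and 98.9 (93.9 to 104). The osteoblast-lineage-like class had 89.5 and 136. These 3 classes overlapped in the control library. A small mural-like class, too few for the ranking, had the highest values at 344 (232 to 491, 30 UMIs) and 233 (112 to 428, 10 UMIs). In myeloid-like nuclei Tgfb2 was at 20.7 and 14.3, and in excitatory-neuron-like nuclei at 6.04 and 5.87.

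Tgfb3, a ligand known for its part in closure of the palate, was highest in osteoblast-lineage-like nuclei at 91.8 CPM (73.1 to 114) and 67.8 (38.0 to 112). Fibroblast-like nuclei had 39.9 and 37.8 and astrocyte-like nuclei 32.6 and 32.3. Tgfb3 in myeloid-like nuclei was 7.46 and 7.03, and in T-cell-like nuclei of the cKO-labelled library it had no UMI, which allows up to 17.3 CPM. Among the ligands, then, Tgfb1 was highest in myeloid-like nuclei. Its intervals overlapped with those of T-cell-like nuclei in both libraries and of endothelial-like nuclei in the cKO-labelled library alone. Tgfb2 and Tgfb3 were higher in fibroblast-like, bone-lineage-like and astrocyte-like nuclei than in myeloid-like ones.

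Tgfbr1, the kinase that passes the signal to SMAD proteins, was the member that most separated myeloid-like nuclei from the rest. Its level there was 1017 CPM (989 to 1046) and 974 (951 to 997), with 1001 and 1065 in the control mice and 972 and 1037 in the cKO-labelled mice. Endothelial-like nuclei followed at 239 and 244 and fibroblast-like nuclei at 227 (219 to 235) and 241 (233 to 249), which did not differ from the endothelial class beyond counting error. Astrocyte-like nuclei had 118 and 89.7, and excitatory-neuron-like nuclei 31.9 and 26.2. At 1000 UMIs a nucleus, Tgfbr1 was detected in 55.5% and 53.8% of myeloid-like and in 1.89% and 2.04% of lesional excitatory-neuron-like nuclei.

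Tgfbr2, the ligand-binding kinase, was more evenly spread. Myeloid-like nuclei had 449.5 CPM (431 to 469) and 416 (401 to 432), T-cell-like nuclei 430.2 (348 to 526) and 455 (360.2 to 567), and endothelial-like nuclei 374 and 379. The first 2 classes changed order between the libraries and overlapped in both. Fibroblast-like nuclei had 249 and 259, astrocyte-like nuclei 125 and 112, and excitatory-neuron-like nuclei 16.3 and 14.5. The myeloid class therefore stood above fibroblast-like nuclei for both signalling receptors, by a larger factor for Tgfbr1 than for Tgfbr2.

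Tgfbr3, which encodes betaglycan, a co-receptor that presents ligand and lacks kinase activity, had the opposite lean. Fibroblast-like nuclei had 493 CPM (481 to 504) and 408 (397 to 418), endothelial-like nuclei 434 (379 to 495) and 386 (317 to 466), and osteoblast-lineage-like nuclei 349 and 357. In myeloid-like nuclei Tgfbr3 was at 68.4 and 63.1 and in astrocyte-like nuclei at 98.0 and 84.7. The fibroblast and endothelial classes overlapped in both libraries.

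Ltbp1, which binds latent TGFβ and anchors it in the matrix, was at 108 CPM (103 to 114) and 100.0 (94.9 to 105) in fibroblast-like nuclei. Inhibitory-neuron-like nuclei had 87.2 and 88.9, astrocyte-like nuclei 80.4 and 89.3, and myeloid-like nuclei 16.8 and 14.8. The mural-like class had 493 (357 to 664) and 466 (285 to 719.5) for Ltbp1, above every ranked class, from 44 and 16 nuclei. Ltbp2, a relative that binds microfibrils and does not itself bind latent TGFβ, was at 79.0 (74.5 to 83.8) and 168 (162 to 175) in fibroblast-like nuclei. The next classes were astrocyte-like nuclei in the control library (38.1, 30.7 to 46.8) and osteoblast-lineage-like nuclei in the cKO-labelled library (58.8). Ltbp2 had no UMI in oligodendrocyte-like nuclei of the control library, which allows up to 5.97 CPM.

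Itgav, the αv subunit, pairs with several β subunits and was present in every class. Myeloid-like nuclei had 311 CPM (295 to 327) and 359.8 (346 to 374), astrocyte-like nuclei 209 and 250.1, fibroblast-like nuclei 145 and 147, and excitatory-neuron-like nuclei 70.2 and 67.3. Itgb8, the β8 subunit, pairs with αv alone and was highest in astrocyte-like nuclei at 212 (194 to 232) and 227 (209 to 246). Oligodendrocyte-like nuclei had 123 and 114 for Itgb8 and fibroblast-like nuclei 98.1 (93.0 to 103) and 126 (120.4 to 132). Myeloid-like nuclei, the highest class for Itgav, had 16.2 and 19.4 for Itgb8.

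The 2 subunits were then counted in the same nucleus at 1000 UMIs per nucleus. Both were detected in 3.46% (2.10 to 5.35, exact binomial) and 3.56% (2.16 to 5.50) of astrocyte-like nuclei, where independent detection would give 3.19% and 3.38%. The shares were 1.56% and 1.23% in fibroblast-like nuclei (1.11% and 1.31% if independent) and 0.235% and 0.457% in myeloid-like nuclei (0.242% and 0.417%). Thinning left out 3 and 3 astrocyte-like, 109 and 99 fibroblast-like and 99 and 120 myeloid-like nuclei. At full depth the shares were 24.5% and 29.2%, 8.82% and 10.9%, and 1.94% and 2.47%. The astrocyte-like shares lay above the fibroblast-like and myeloid-like ones in both libraries and near those that independent detection gives. Oligodendrocyte-precursor-like nuclei had 0 of 72 in the control library (upper limit 4.99%) and 6 of 101 in the cKO-labelled library, or 5.94% (2.21 to 12.5), where independent detection would give 1.44%. That interval overlapped the astrocyte-like one.

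Lesional fibroblast-like nuclei were split into 4 states by clustering without the members. They were a late inner-like state (881 and 1133 nuclei), a leptomeningeal-like state (1386 and 1300), a state led by Zfp804b, Ccn3 and Npr3 that matched no marker list (1511 and 1177) and a pial-like state (381 and 472). The name of the last is uncertain, as its mean log2 fold of markers was 1.298 for the pial and 1.27 for the leptomeningeal list. The state with the highest level was the same in both libraries for 6 of 10 members. Late inner-like nuclei had the highest Tgfb3 and Ltbp2, the leptomeningeal-like state the highest Tgfb1 and Tgfbr1 pooled over libraries, and the Ccn3 state had low Tgfb1 and Ltbp1.

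Among the ligands, Tgfb3 separated the states most. It was at 72.2 and 56.0 CPM in late inner-like nuclei, which was the top state in 4 of 4 mice (51.8 to 82.0), and at 16.8 and 13.7 in leptomeningeal-like nuclei (9.96 to 18.6 over the mice). The Ccn3 state had 45.6 and 48.6 of Tgfb3 and the pial-like state 10.9 and 18.8. Tgfb1 was ordered differently. It was highest in leptomeningeal-like nuclei at 47.0 and 37.0 (33.9 to 48.9 over the mice), the top state in 3 of 4 mice. The Ccn3 state was lowest at 18.8 and 12.9 (12.5 to 21.6). Late inner-like nuclei had 32.8 and 32.9 of Tgfb1. For both genes the states given with mouse ranges were the highest and lowest when pooled, and their mice did not overlap. Those states were picked by the same values, so the separation is a description and no test. Tgfb2 was at 114 and 103 in late inner-like, 91.8 and 117 in leptomeningeal-like, 73.0 and 85.1 in Ccn3-state and 51.4 and 79.7 in pial-like nuclei, with overlap between the mice of the highest and lowest states.

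Tgfbr3 was the receptor with the widest range between states. It was at 209.5 and 191 CPM in late inner-like nuclei (171 to 221 over the mice) and between 460.1 and 645 in the other 3 states. Tgfbr1 was at 309 and 320.1 in leptomeningeal-like (306 to 323 over the mice), 275 and 283 in pial-like, 176 and 219.9 in late inner-like and 188 and 176 in Ccn3-state nuclei. Tgfbr2 varied less, from 210.1 in leptomeningeal-like nuclei to 296 in late inner-like nuclei, both of the cKO-labelled library. Late inner-like nuclei thus had the lowest betaglycan transcript and a Tgfbr2 level within the range of the other states or just above it.

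Ltbp2 was highest in late inner-like nuclei in 4 of 4 mice (190.4 to 374), at 200.1 and 315 CPM by library. It was at 61.3 and 121 in leptomeningeal-like, 32.7 and 79.3 in Ccn3-state and 87.6 and 150 in pial-like nuclei. Ltbp1 was lowest in the Ccn3 state, at 32.9 and 20.6 (17.9 to 38.0 over the mice), against 171 and 104 in late inner-like, 152 and 159 in leptomeningeal-like and 198 and 172 in pial-like nuclei. Itgav hardly varied, between 135 and 163 over states and libraries. Itgb8 was at 83.3 and 136 in late inner-like, 126 and 151 in leptomeningeal-like, 83.3 and 89.1 in Ccn3-state and 116 and 143 in pial-like nuclei. Pial-like nuclei of the female control mouse stood apart from the other mice, at 393 for Ltbp1, 6.34 for Ltbp2 (2 UMIs), 44.4 for Itgb8 and no UMI for Tgfb3, from 119 nuclei.

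**Figure D2:**
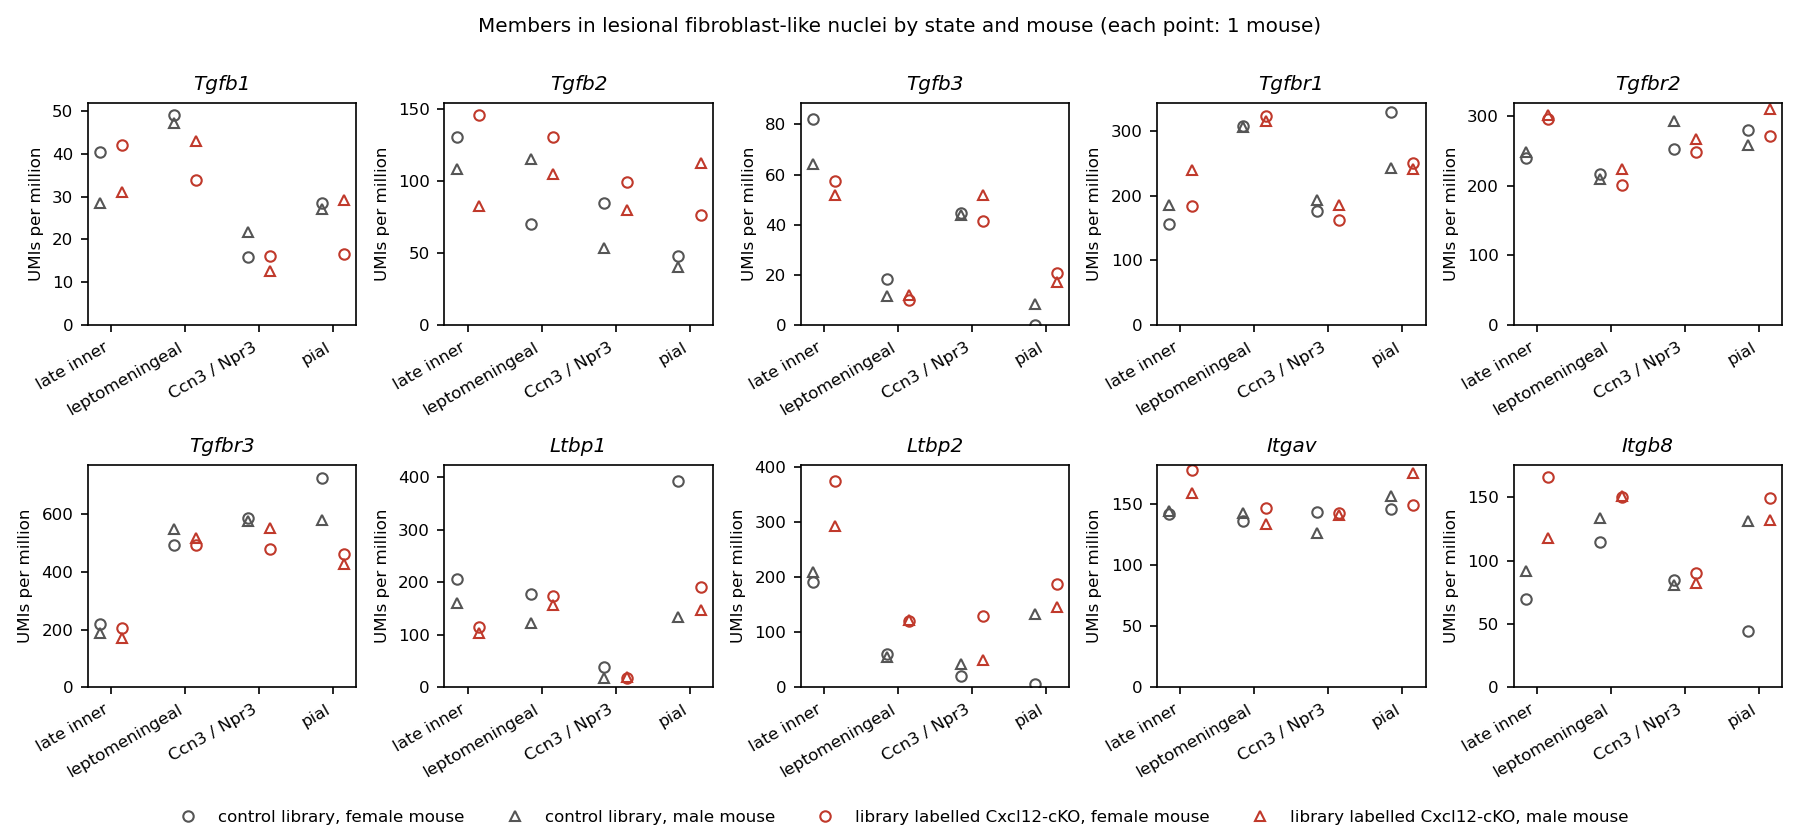
Level in CPM of each member (y axis, from 0) in lesional fibroblast-like nuclei by state (x axis), 1 point per mouse, circles for female and triangles for male, grey for control and red for the library labelled Cxcl12-cKO. All 4 mice are highest in late inner-like nuclei for Ltbp2 (190.4 to 374) and Tgfb3 (51.8 to 82.0), and low in the Ccn3 state for Ltbp1 (17.9 to 38.0).

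Lesional myeloid-like nuclei fell into 6 subclusters, made without the members. These were homeostatic microglia-like (832 and 987 nuclei), a subcluster led by Mamdc2, Fabp4, Cd36 and Pparg (501 and 793), border-associated-macrophage-like (125 and 90), monocyte- or dendritic-like (43 and 67), dividing (21 and 47) and a subcluster led by fibroblast genes (282 and 323). In the last, 29.4% of nuclei had both female and male UMIs, against 10.95% of all nuclei. It held 86% and 74% of the myeloid UMIs of Tgfb2, 83.3% and 69.4% of those of Tgfb3, 85.8% and 87.1% of those of Tgfbr3, 90.1% and 77.7% of those of Ltbp1, 83.1% and 79.6% of those of Ltbp2 and 76.9% and 74.1% of those of Itgb8. For Tgfb1, Tgfbr1, Tgfbr2 and Itgav its share was between 14.5% and 22.0%, near its share of myeloid-like nuclei (15.6% and 14%).

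Tgfbr1 was at 1330 and 1248 CPM in homeostatic microglia-like nuclei and at 1102 and 1030 in the Mamdc2 and Fabp4 subcluster. Border-associated-macrophage-like nuclei had 300.1 and 447, and monocyte- or dendritic-like nuclei 945 and 460.4. Tgfbr2 was ordered differently, at 601 and 589 in homeostatic microglia-like, 519 and 549.6 in border-associated-macrophage-like, 303 and 303 in Mamdc2 and Fabp4 and 202 and 144 in monocyte- or dendritic-like nuclei. Homeostatic microglia-like nuclei were thus high for both receptors, the Mamdc2 and Fabp4 subcluster for Tgfbr1 and border-associated-macrophage-like nuclei for Tgfbr2. The homeostatic name rests on markers set against other lesional myeloid-like nuclei alone (mean log2 fold 1.81), so a resting state was not shown.

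Itgav was at 411 and 413 CPM in the Mamdc2 and Fabp4 subcluster, 319.5 and 405 in homeostatic microglia-like and 144.5 and 138.7 in border-associated-macrophage-like nuclei. Tgfb1 varied less, at 148 and 118 in border-associated-macrophage-like, 141 and 131 in Mamdc2 and Fabp4 and 128 and 129 in homeostatic microglia-like nuclei. Monocyte- or dendritic-like nuclei had 169 and 89.3 of Tgfb1, the latter from 13 UMIs, and dividing nuclei were highest in the cKO-labelled library at 165.5. The highest subcluster was the same in both libraries for 7 of 10 members, but for 2 of 10 when the subcluster with fibroblast genes was left out.

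The libraries were then compared within a class, which addresses what differs where fibroblasts carry the Cxcl12 deletion by label. Called here means past 1.5-fold with at least 100 UMIs in both libraries together. In lesional fibroblast-like nuclei 1 of 10 members, Ltbp2, was called, higher in the cKO-labelled library, against 3.78% of all 12578 genes tested in either direction. The median log2 ratio was 0.03 over the members and 0.00 over all genes tested.

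Ltbp2 was at 52.7 CPM in the female and 99.2 in the male control mouse and at 196 and 159 in the female and male cKO-labelled mice. Both cKO-labelled mice lay above both control mice. The log2 ratio was 1.09 (0.99 to 1.19), a 2.13-fold higher level, and it was 1.89 (1.71 to 2.08) between the females and 0.68 (0.53 to 0.83) between the males. Ltbp2 was higher in the cKO-labelled library within each state, with log2 ratios of 0.66 (0.51 to 0.80) in late inner-like, 0.97 in leptomeningeal-like, 1.28 in Ccn3-state and 0.77 in pial-like nuclei. Late inner-like nuclei, the state with the most Ltbp2, made up 21.2% of fibroblast-like nuclei in the control and 27.8% in the cKO-labelled library.

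The other members differed less in fibroblast-like nuclei. Itgb8 was at 89.8 and 102 CPM in the control and 135 and 118 in the cKO-labelled female and male mice, a log2 ratio of 0.36 (0.26 to 0.46), and its ratio in late inner-like nuclei alone was 0.71 (0.49 to 0.93). Tgfb2 had 83.8 and 82.3 against 116 and 90.2, a ratio of 0.22 (0.11 to 0.34), which was -0.01 at a clustering resolution of 0.5. Tgfbr3 was lower in both cKO-labelled mice (413 and 404) than in the control mice (521 and 467), a ratio of -0.27 (-0.32 to -0.22). For these 3 genes, as for Ltbp2, the cKO-labelled mice did not overlap the control mice. How many of all genes separate the mice in this way was not counted, so it adds no weight to them. Tgfb1 (-0.19), Tgfb3 (-0.08), Tgfbr1 (0.09), Tgfbr2 (0.05), Ltbp1 (-0.11) and Itgav (0.02) differed by less than 0.2 on the log2 scale. At a clustering resolution of 0.5, where clusters of 2343 and 2099 nuclei stayed unnamed, Ltbp1 was at -0.59. Within states Ltbp1 was lower in late inner-like (-0.71) and Ccn3-state nuclei (-0.67) of the cKO-labelled library.

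**Figure D3:**
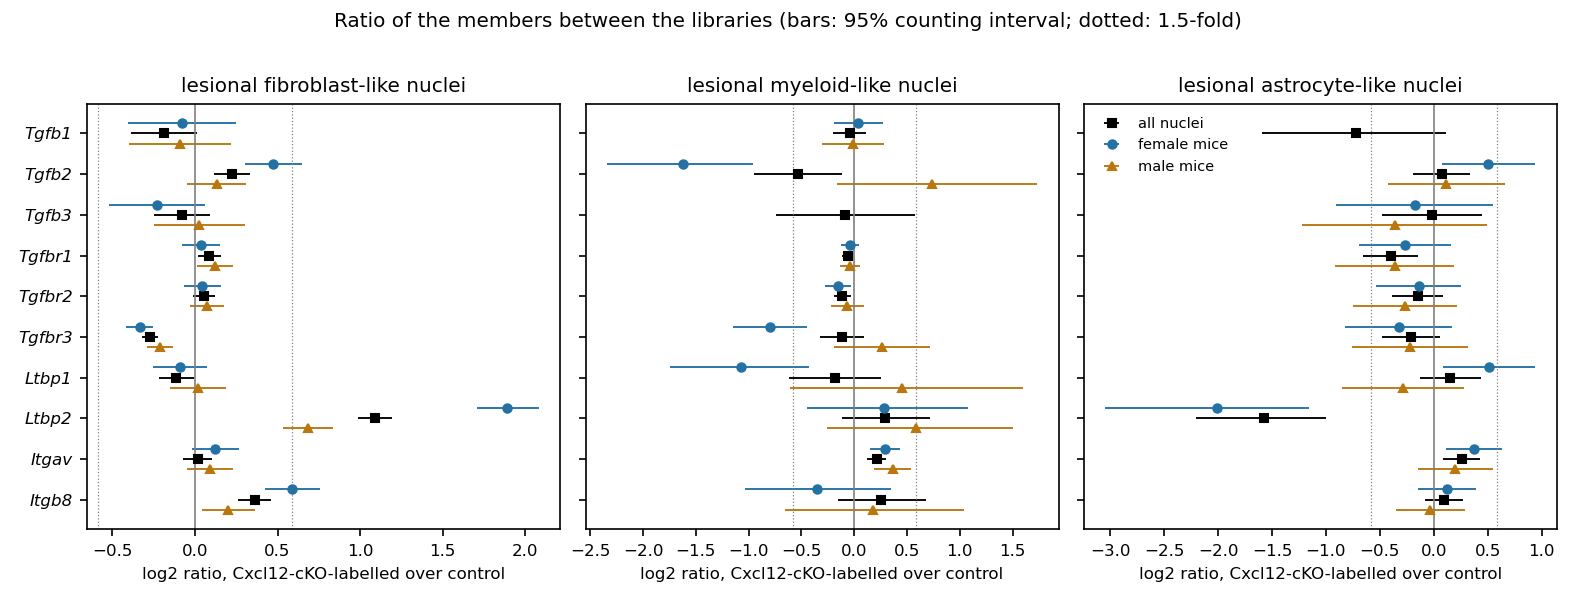
Log2 ratio of the library labelled Cxcl12-cKO over control (x axis) for each member (y axis) in lesional fibroblast-like, myeloid-like and astrocyte-like nuclei, for all nuclei (black), female mice (blue) and male mice (ochre), with 95% counting intervals, a solid line at 0 and dotted lines at 1.5-fold. Ltbp2 lies to the right of the line in fibroblast-like nuclei (1.09, with 1.89 in females and 0.68 in males) and to the left in astrocyte-like nuclei (-1.57).

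In lesional myeloid-like nuclei 0 of 9 members tested were called, against 3.82% of all genes, and the median ratio was -0.06 (-0.02 over all genes). Itgav had 315 and 294 CPM in the control mice and 384 and 378 in the cKO-labelled mice, with a log2 ratio of 0.21. In homeostatic microglia-like nuclei its ratio was 0.34. The ratios of the ligands were -0.04 for Tgfb1 and -0.53 for Tgfb2, those of the receptors -0.06 for Tgfbr1, -0.11 for Tgfbr2 and -0.12 for Tgfbr3, and the others -0.19 for Ltbp1, 0.30 for Ltbp2 and 0.26 for Itgb8. For Tgfb2, Tgfbr3, Ltbp1, Ltbp2 and Itgb8 most UMIs behind these ratios lay in the subcluster led by fibroblast genes, as given above. Over 12 alternatives Tgfb2 ranged from -1.625 to 0.74, Tgfbr3 from -0.80 to 0.26 and Ltbp1 from -1.08 to 0.89. Itgb8 ranged from -0.36 to 0.45 and Ltbp2 from 0.248 to 0.588. Tgfb3 had 36 and 49 UMIs, under the minimum. Tgfbr1 was lower in the cKO-labelled library in monocyte- or dendritic-like nuclei (-1.03), a subcluster of 43 and 67 nuclei.

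Of 9 members tested in lesional astrocyte-like nuclei, 1 was called, Ltbp2, against 6.74% of all genes, and it was lower in the cKO-labelled library, the opposite direction to fibroblast-like nuclei. Control mice had 53.0 and 18.4 CPM of Ltbp2 and cKO-labelled mice 12.8 and 10.4, from 91 and 33 UMIs in all, a log2 ratio of -1.57 (-2.21 to -0.996). The 7 fibroblast markers moved the same way in these nuclei, at 1014 and 446 CPM summed, or 24.0% and 12.1% of their level in fibroblast-like nuclei, and over the mice at 895 and 717 in control against 306 and 338. Their part in the Ltbp2 difference was not tested. The median ratio over the members was -0.02, with -0.03 over all genes. Itgav was higher in astrocyte-like nuclei of the cKO-labelled library (0.26) and Tgfbr1 lower (-0.40). Tgfb2 (0.07), Tgfb3 (-0.02), Tgfbr2 (-0.15), Tgfbr3 (-0.21), Ltbp1 (0.15) and Itgb8 (0.09) had intervals that held 0, and Tgfb1 was under the minimum.

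Lesional osteoblast-lineage-like nuclei, 341 in the control and 84 in the cKO-labelled library, had 2 of 5 members called, both higher in the cKO-labelled library, against 10.8% of all genes. Itgav was at 171 and 271 CPM, a log2 ratio of 0.67 (0.21 to 1.10), with 0.48 between the females and 0.96 between the males. Tgfb2 had a ratio of 0.61 (-0.06 to 1.22) from 81 and 30 UMIs, and ratios of -0.82 between the females and -0.83 between the males, so its direction within each sex was the reverse. Of its 30 UMIs in the cKO-labelled library 4 lay in female and 4 in male nuclei, and the rest in nuclei assigned to neither mouse. Both calls were close to the threshold. With nuclei weighted alike Itgav was at 0.58 and Tgfb2 at 0.49. Tgfbr1 (0.21), Tgfbr2 (0.40) and Tgfbr3 (0.04) were not called, and Tgfb1, Tgfb3, Ltbp1, Ltbp2 and Itgb8 were under the minimum. The median over the members was 0.40, with -0.01 over all genes.

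In neurons 0 of 6 members tested were called in lesional excitatory-neuron-like nuclei (4.02% of all genes), with a median ratio of -0.19 against -0.02. Tgfbr3 was at -0.43, Tgfbr1 at -0.28, Itgb8 at -0.21, Tgfbr2 at -0.16, Itgav at -0.06 and Ltbp1 at 0.30, and the 3 ligands and Ltbp2 were under the minimum. In parenchymal excitatory-neuron-like nuclei 1 of 9 was called (1.64% of all genes), Ltbp2 at 0.95 and 1.77 CPM from 38 and 69 UMIs, a log2 ratio of 0.89 (0.30 to 1.51). Among the others Tgfbr2 (0.49), Itgb8 (0.31) and Itgav (0.22) were higher and Tgfb3 lower (-0.38), with intervals clear of 0. Those of Tgfb2 (0.13), Ltbp1 (0.11), Tgfbr3 (-0.07) and Tgfbr1 (-0.12) held 0, and Tgfb1 was under the minimum. The median there was 0.13, with -0.01 over all genes. Parenchymal inhibitory-neuron-like nuclei had 0 of 8 members called (1.82% of all genes), with a median of 0.08 against -0.01. Itgav was at -0.52, with an interval below 0, and Tgfbr2 (0.35), Tgfbr1 (0.32), Tgfbr3 (0.17), Itgb8 (0.14), Tgfb2 (0.03), Ltbp1 (0.00) and Tgfb3 (-0.22) had intervals that held 0. Tgfb1 and Ltbp2 were under the minimum. Ltbp2 in parenchymal neurons was thus far below its level in fibroblast-like nuclei.

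Lesion and parenchyma were compared within each library for 3 classes. Depth differed between regions, but less within these classes than over all nuclei. Median UMIs in lesion against parenchyma were 3698 and 4083 against 4902 and 5155 in astrocyte-like nuclei. They were 13890 and 12190 against 17460 and 18410 in excitatory-neuron-like and 10450 and 8038 against 12520 and 15170 in inhibitory-neuron-like nuclei. Tgfbr2 was higher in the lesion in astrocyte-like and excitatory-neuron-like nuclei of both libraries, and Ltbp1 in excitatory- and inhibitory-neuron-like nuclei of both.

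Of 7 members tested in astrocyte-like nuclei, 5 were called in the control library, all higher in the lesion, against 50.0% of all genes, and 3 in the cKO-labelled library, of which 2 were higher and 1 lower in the lesion, against 47.8%. Over all genes 37.6% were called higher and 12.4% lower in control, and 35.0% and 12.8% in the other library. Tgfbr2 was at 125 CPM in the lesion and 32.7 in the parenchyma of the control library (log2 ratio 1.82) and at 112 and 44.1 in the cKO-labelled library (1.29). Tgfbr3 was at 98.0 and 16.3 (2.37) and at 84.7 and 32.0 (1.32). These were the 2 members called higher in both libraries. At 1000 UMIs per nucleus Tgfbr2 in the control library was at 0.71 and Tgfbr3 at 0.33, the latter no longer past the fold, and without the highest doublet scores they were at 1.36 and 1.17. Those thinned control ratios rest on 2 of 37 parenchymal nuclei with a UMI for each gene. In the cKO-labelled library Tgfbr2 was at 3.18 at 1000 UMIs per nucleus, but 0 of 47 parenchymal nuclei then had a UMI. The size of that ratio is therefore set by the amount added to each sum and does not measure a stronger difference. Tgfbr3 in the cKO-labelled library had 0.16 in the female and 1.94 in the male mouse.

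The remaining astrocyte-like values differed between the libraries. Tgfb2 was at 93.3 in the lesion and 43.6 CPM in the parenchyma of the control library (1.01) but at 98.1 and 92.1 in the cKO-labelled library. Tgfbr1 was at 118 and 43.6 in the control library (1.36) and at 89.7 and 64.1 in the other (0.44). The control call was lost at a clustering resolution of 0.5 (0.23) and without the highest doublet scores (0.12). It was also lost with nuclei carrying both female and male UMIs removed before clustering (0.46), but was kept with them removed after clustering (0.91). Itgav was at 209 and 136 in the control library (0.59, with 0.51 when all deposited barcodes were kept, which is under the fold) and at 250.1 and 204 in the other. Ltbp1 was at 80.4 and 98.0 in the control library (-0.32) and at 89.3 and 132 in the cKO-labelled library (-0.58), where the female mouse had 0.24 and the male -1.28 and the call was lost without the highest doublet scores (-0.40) and without nuclei carrying both female and male UMIs (-0.32). Itgb8 was at 212 in the lesion and 163 in the parenchyma of the control library and at 227 and 168 in the other. Tgfb3 and Ltbp2 had no UMI in parenchymal astrocyte-like nuclei of the control library, so their lesional levels of 32.6 and 38.1 were at least 2.00-fold and 2.33-fold higher by a floor of 3 counts, and each had 1 UMI in the cKO-labelled library. Tgfb1 was at 13.4 and 16.3 in the control library and at 8.08 against no UMI in the other, which allows up to 12.02 CPM. Parenchymal astrocyte-like nuclei numbered 37 and 47, and the fibroblast markers were at 153 and 100.2 CPM in them against 1014 and 446 in the lesion. Their part in these differences was not tested. Member medians were 1.02 and 0.41, with 0.33 and 0.28 over all genes.

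Excitatory-neuron-like nuclei had 4 of 8 members called in the control library (24.5% of all genes) and 3 of 8 in the cKO-labelled library (27.1%), all higher in the lesion, where 3.74% and 5.46% of all genes were called higher and 20.7% and 21.6% lower. Tgfbr2 was at 16.3 CPM in the lesion and 3.20 in the parenchyma of the control library, a log2 ratio of 2.35 (1.99 to 2.72), and at 14.5 and 4.51 in the cKO-labelled library, a ratio of 1.70 (1.19 to 2.16). It was higher in the lesion in all 4 mice, with ratios of 2.39, 1.40, 1.42 and 2.03. Tgfbr1 was at 31.9 and 14.1 (1.18) and at 26.2 and 12.97 (1.02), and Ltbp1 at 27.2 and 16.8 (0.69) and at 33.3 and 18.2 (0.88). By mouse Ltbp1 had ratios of 0.93 and -0.04 in the control female and male and 0.81 and 0.06 in the cKO-labelled mice. Tgfb2 was called in the control library alone (0.64, with 0.50 in the other). These values were lower in settings where nuclei were removed and the rest were clustered and named anew. The mouse ratios of Tgfbr2 leave out nuclei with both female and male UMIs without new clustering, and each was past the fold. Whether the removal or the new clustering moved the values was not tested. Without the 10% of nuclei with the highest doublet scores, Tgfbr2 had ratios of 0.67 and 0.58 and Tgfbr1 of 0.39 and 0.10, and in the control library Ltbp1 had 0.46 and Tgfb2 0.09. With nuclei carrying both female and male UMIs removed before clustering, Tgfbr2 had 0.83 and 0.42 and Tgfbr1 0.25 and -0.23. In the control library Ltbp1 then had 0.47 and Tgfb2 0.12. The other members were not called, with ratios in control and the other library of 0.10 and -0.17 for Tgfb3, 0.38 and 0.02 for Tgfbr3, 0.37 and 0.09 for Itgav and 0.38 and -0.14 for Itgb8, and Tgfb1 and Ltbp2 were under the minimum.

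In the same neurons the 7 fibroblast markers summed to 208 and 126 CPM in the lesion against 61.4 and 60.0 in the parenchyma, while the 7 myeloid markers were no higher in the lesion, at 28.4 and 31.5 against 39.3 and 39.9. The part of fibroblast transcripts in the lesional neuron values was not tested. Member medians were 0.51 and 0.30, with -0.09 in both libraries over all genes.

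Inhibitory-neuron-like nuclei had 2 of 3 members called in the control library (18.1% of all genes) and 4 of 5 in the cKO-labelled library (22.3%), all higher in the lesion. Over all genes 3.51% and 6.56% were called higher and 14.6% and 15.8% lower. Ltbp1 was at 87.2 CPM in the lesion and 43.8 in the parenchyma of the control library, a log2 ratio of 1.00 (0.63 to 1.34), and at 88.9 and 43.9 in the cKO-labelled library, a ratio of 1.03 (0.61 to 1.41), and the ratios of the 4 mice were 1.08, 0.91, 1.03 and 1.42. Ltbp1 was past the fold in both libraries under every alternative run. Tgfbr3 was called in both (0.71 and 0.84), but was at 0.56 in control without the highest doublet scores and at 0.54 in the other library at 1000 UMIs. Itgav was at 45.1 in the lesion and 14.3 in the parenchyma of the cKO-labelled library (1.67, with 2.10 in the female and 0.70 in the male) and at 21.8 and 20.6 in the control library (0.10), and Tgfbr1 was called in the cKO-labelled library alone (0.63, and 0.53 without the highest doublet scores). Tgfbr2 was at 0.40 in the cKO-labelled library and not called. Tgfb1, Tgfb2, Tgfb3, Ltbp2 and Itgb8, and in control both signalling receptors, were under the minimum. The fibroblast markers were at 107 and 96.8 in lesional against 43.8 and 45.1 CPM in parenchymal inhibitory-neuron-like nuclei, and the myeloid markers at 16.6 and 13.3 against 44.7 and 42.0. Their part was not tested. Member medians were 0.71 and 0.84, with -0.01 in both over all genes.

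**Figure D4:**
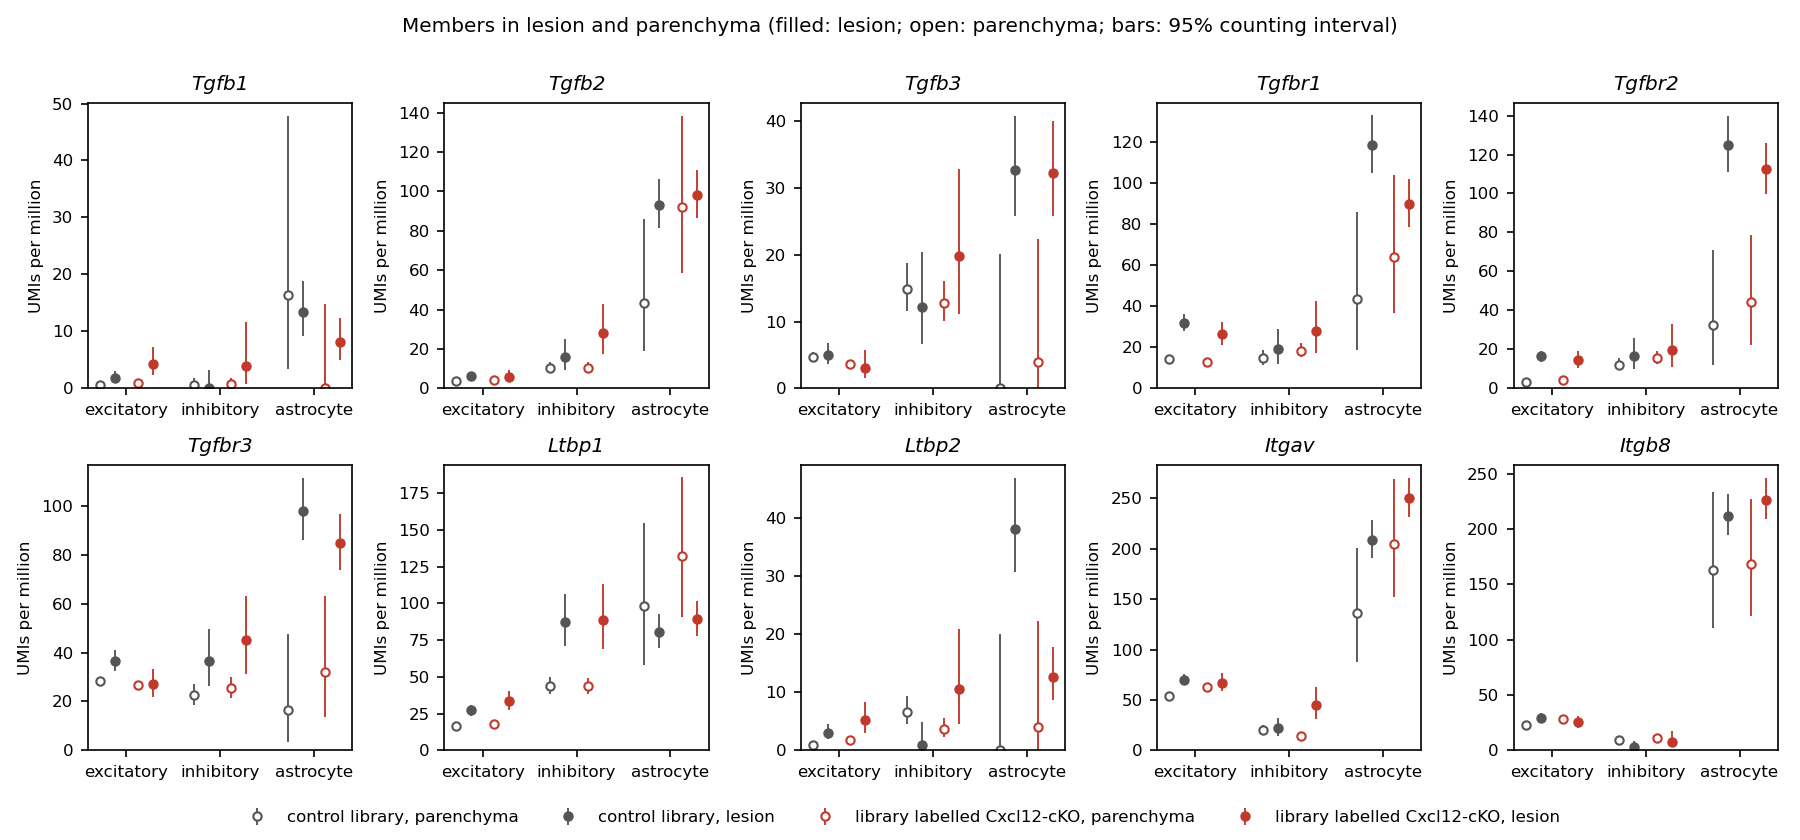
Level in CPM of each member (y axis, from 0) in excitatory-neuron-like, inhibitory-neuron-like and astrocyte-like nuclei, open points for the parenchyma and filled points for the lesion, grey for control and red for the library labelled Cxcl12-cKO, with 95% counting intervals. For Tgfbr2 the lesional points lie above the parenchymal ones in excitatory-neuron-like (16.3 and 14.5 against 3.20 and 4.51) and astrocyte-like nuclei, and for Ltbp1 in inhibitory-neuron-like nuclei (87.2 and 88.9 against 43.8 and 43.9).

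The parenchyma held 51 and 50 fibroblast-like nuclei, so their values rest on few UMIs. Ltbp1 and Ltbp2 had no UMI among the 223782 UMIs of these nuclei in the control library, which makes the lesional levels of 108 and 79.0 CPM at least 8.06-fold and 5.89-fold higher by a floor of 3 counts. In the cKO-labelled library Ltbp1 was at 42.2 (9 UMIs) and Ltbp2 at 23.4 (5 UMIs). Tgfb2 was at 26.8 and 14.1 from 6 and 3 UMIs, below its lesional 84.7 and 98.9. Tgfbr1 went the other way, at 402 and 361 in the parenchyma from 90 and 77 UMIs, with log2 ratios of lesion over parenchyma of -0.83 and -0.59. The 32 and 46 parenchymal myeloid-like nuclei had 1051 and 2054 of Tgfbr1, 140.1 and 172 of Itgav and 117 and 152 of Tgfb1.

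Other genes of the pathway were taken from 4 lists, for ligand release and presentation (13 genes), receptors and co-receptors (6), intracellular transducers (12) and target or myofibroblast genes (13). Between the libraries few of them were past 1.5-fold in fibroblast-like nuclei. There, 1 of 11 release genes was higher in the cKO-labelled library, Lrrc32, which encodes the latent TGFβ anchor GARP (10.0 against 6.30 CPM, log2 ratio 0.67), and 0 of 5 receptor, 0 of 12 intracellular and 0 of 10 target genes tested were past the fold in either direction. The list medians were 0.01, 0.03, 0.14 and 0.17, with 0.00 over all genes.

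In myeloid-like nuclei 0 of 9 release, 0 of 5 receptor and 0 of 12 intracellular genes were past the fold, and 3 of 8 target genes were lower in the cKO-labelled library, the matrix genes Postn (-1.49), Col1a2 (-1.16) and Col1a1 (-0.86), with a target median of -0.38. Col1a1 and Col1a2 are among the 7 fibroblast markers, which were at 1088 and 633 CPM in these nuclei. Astrocyte-like nuclei had 4 of 8 target genes lower, led by Col1a2 (-1.58), Col1a1 (-1.23) and Col3a1 (-1.08), and 1 higher, Ccn2, a matricellular protein gene (0.71), with a median of -0.68. There 1 of 5 release genes was lower, Nrros, which anchors latent TGFβ on microglia (-0.92), and 0 of 3 receptor and 0 of 11 intracellular genes were past the fold. The collagen genes thus differed in the direction of the marker sum in both classes, and the part of fibroblast transcripts in them was not tested.

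In lesional excitatory-neuron-like nuclei the collagens Col1a2 (-1.10) and Col1a1 (-0.83) were 2 of 5 target genes lower in the cKO-labelled library, with the release gene Itgb5, a β partner of αv (-0.63, 1 of 6), and the inhibitory SMAD gene Smad7 (-0.60, 1 of 10 intracellular). Osteoblast-lineage-like nuclei had Skil, a repressor of SMAD signalling, higher (0.82, 1 of 10) and Col1a2 lower (-0.77, 1 of 6), with 0 of 3 release genes past the fold. In parenchymal neurons 1 of 8 target genes, Col3a1 (0.75), was past the fold in the excitatory class, with 0 of 9 release, 0 of 2 receptor and 0 of 10 intracellular genes. The inhibitory class had 0 of 6, 0 of 2, 0 of 10 and 0 of 3.

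Between regions, astrocyte-like nuclei had most intracellular genes higher in the lesion, 8 of 11 in the control library, led by Skil (3.09), Smad7 (2.82) and Smad6 (2.69), and 7 of 11 in the cKO-labelled library, led by Skil (2.68), Pmepa1 (2.503) and Ski (2.18). Smad2 was lower in the control library (-0.63). Skil, Ski, Smad6, Smad7 and Pmepa1 encode inhibitors of TGFβ family signalling. All 5 target genes tested were higher in the lesion in each library, led by Col3a1 (3.70), Ldlrad4 (2.93) and Fn1 (2.55) in control and by Fn1 (3.52), Col1a1 (2.35) and Ldlrad4 (1.99) in the other. Of 4 release genes, Fbn1 (1.92 and 2.59) and Ltbp3 (1.20 and 1.62) were higher and Itgb5 lower (-0.64 and -0.97), and both receptor genes tested, Cd109 (3.63 and 4.07) and Nrp1 (1.04 and 1.19), were higher. The background for these counts is the 37.6% and 35.0% of all genes called higher in the lesion in this class.

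In excitatory-neuron-like nuclei the target genes with the highest ratios were collagens. Of 7 target genes 4 were higher in the lesion in each library, led by Col3a1 (2.90), Col1a2 (2.68) and Col1a1 (2.58) in control and by Col1a2 (2.04), Col3a1 (2.03) and Col1a1 (1.84) in the cKO-labelled library, where Ccn2 (-1.73) and Cthrc1 (-1.70) were lower. Of 9 release genes, Itgb5 (2.57) and Nrros (0.61) were higher in control, and Itgb5 (1.58), Fbn1 (0.87) and Ltbp3 (0.66) were higher and Itgb3 lower (-0.61) in the other library. Of 10 intracellular genes, Pmepa1 was higher in both (0.59 and 0.84) and Ski in the cKO-labelled library (0.62), and 0 of 2 receptor genes were past the fold. The collagens are fibroblast markers, whose sum was higher in these lesional nuclei as given above.

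Inhibitory-neuron-like nuclei had Fbn2, a fibrillin gene, higher in the lesion of both libraries (1.86, 1 of 4 release genes, and 1.95, 1 of 5). Skil was higher in both (0.71 and 0.63), with Pmepa1 (1.29) and Smad3 (1.05) in the cKO-labelled library, making 1 of 7 and 3 of 9 intracellular genes. Tgfbrap1, a receptor-associated protein gene, was lower in control (-0.89, 1 of 2 receptor genes) and 0 of 2 receptor genes were past the fold in the cKO-labelled library. Of the target genes Col1a2 was higher in control (1.22, 1 of 3), and 0 of 2 were past the fold in the cKO-labelled library. Skil was thus past the fold in the lesion in both astrocyte-like and inhibitory-neuron-like nuclei of both libraries.

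The genes most like each member were ranked by Pearson's r of log2(CPM + 1) over 35 points, which were lesional classes, fibroblast states and myeloid subclusters of both libraries. The points share libraries and depth, so r is a description with no p. The closest genes were Hpcal1 for Tgfb1 (0.944), Kirrel for Tgfb2 (0.953), Tgfb2 for Tgfb3 (0.892), Jmjd1c for Tgfbr1 (0.937) and Parp10 for Tgfbr2 (0.943). They were 9530026P05Rik for Tgfbr3 (0.94), Dzip1l for Ltbp1 (0.908), Col8a1 for Ltbp2 (0.928), Rnh1 for Itgav (0.871) and Rgma for Itgb8 (0.882). Parva, an adaptor at cell-matrix contacts, was second for both Tgfb2 (0.93) and Ltbp2 (0.889). Among pairs of members the highest were Tgfb2 with Tgfb3 (0.892), Tgfb2 with Ltbp2 (0.868), Tgfb1 with Tgfbr2 (0.851), Tgfbr1 with Itgav (0.828) and Tgfb1 with Tgfbr1 (0.815), and Tgfb1 with Ltbp1 was at -0.514.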

How the data were processed

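Single-nucleus RNA was measured in lesion and parenchyma of 1 library labelled control and 1 labelled Cxcl12-cKO. The authors deposited filtered matrices of UMI counts per gene and nucleus, not normalized, made with Cell Ranger 9.0.0 on GRCm39 per the submitters' processing notes. Intron counting was not given in the sources used here. Totals after filtering were 33470866 and 30864931 UMIs in the lesion and 47587997 and 48051671 in the parenchyma of the control and cKO-labelled libraries. Unused columns of per-sample values numbered 0.

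A filter at the outer 2.5% of UMIs and of genes and the upper 2.5% of mitochondrial share kept barcodes of 757.2 to 36243.8 UMIs and 584.2 to 6418.6 genes, with a mitochondrial share of up to 8.75%. Nuclei were clustered by the Leiden method in Scanpy 1.11.5 and python-igraph 0.11.9 (3000 variable genes, 30 principal components, 20 neighbours, resolution 0.25), with the 10 members, the pathway lists and sex-linked genes left out. Reclustering of lesional fibroblast-like and myeloid-like nuclei used 2000 variable genes. Clusters were named from marker lists. A cluster of bone genes was kept apart from fibroblast-like nuclei. Doublets were not removed. Scrublet marked 15 and 17 nuclei (0.137% and 0.158%), shares at which the caller had not worked, so removing the highest 10% of scores in each library (1128 and 1078 nuclei) was an alternative. Nuclei with UMIs of Xist alone were assigned to the female and nuclei with UMIs of Eif2s3y, Kdm5d, Uty or Ddx3y alone to the male mouse.

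UMIs were summed per class, region and library. Ratios added 0.5 to each sum, and a ratio was called past 1.5-fold with at least 100 UMIs in the 2 sets together. No test across libraries was possible with 1 library per genotype. Exact intervals (95%) came from SciPy 1.17.1, with Python 3.11.15, NumPy 2.4.6, pandas 2.3.3, scikit-learn 1.9.0 and Matplotlib 3.10.9, and the scripts were tested on simulated data. Shares of nuclei were taken after drawing 1000 UMIs per nucleus (seed 1), and a floor is 3 counts. All 10 members are named in each comparison between libraries by class, and between regions for astrocyte-like and neuron-like nuclei. For parenchymal fibroblast-like and myeloid-like nuclei only some are named. Of each pathway list at most 3 genes per direction with the largest ratio past the fold are named. Of the genes most like a member, with at least 500 lesional UMIs, the closest 3 were computed. The members, lists and rules were chosen with earlier results of these data known, and the subcluster with fibroblast genes was left out as an alternative chosen after seeing the data.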

Additional observations from a re-analysis of the deposited data

Results flagged for a closer look

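Differences between the libraries whose direction was the same in both sexes within each of a pair of classes, but opposite between those classes, are listed here. None of these differences between classes was tested. Ltbp2 had a log2 ratio of the library labelled Cxcl12-cKO over control of 1.09 in lesional fibroblast-like and 0.89 in parenchymal excitatory-neuron-like nuclei, against -1.57 in lesional astrocyte-like nuclei, where fibroblast markers were also lower (446 against 1014 CPM).

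Tgfbr1 had 0.0861 in fibroblast-like nuclei, against -0.0626 in myeloid-like and -0.40 in astrocyte-like nuclei of the lesion. Tgfbr2 had 0.49 in parenchymal excitatory-neuron-like nuclei and -0.11 in lesional myeloid-like nuclei. Itgav had 0.21 in myeloid-like, 0.26 in astrocyte-like and 0.67 in osteoblast-lineage-like nuclei of the lesion and 0.22 in parenchymal excitatory-neuron-like nuclei, against -0.52 in parenchymal inhibitory-neuron-like nuclei. The small ratios among them lie near 0, and 4 mice in 2 libraries give no measure of the spread between libraries.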

How the results depend on the processing

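No paired analysis was possible because each genotype was 1 library. Regions of the same mouse were set side by side as within-mouse ratios, with no test. Over 14 settings and 1138 values of members, 1014 stayed within the counting interval of the reported value, 118 moved further without a change of sign in a ratio past the fold, and 6 ratios past the fold changed sign. In all, 106 values changed sign. The sum over classes of members past 1.5-fold between libraries was 5. It was 3 without nuclei carrying both female and male UMIs, 3 with female mice only, 2 with male mice only and 13 with no UMI minimum. The same sum between regions was 21. It was 12 without the highest doublet scores, 13 with female mice only, 2 with male mice only, 1 at 1000 UMIs per nucleus and 34 with no UMI minimum. By construction fewer genes reached the minimum in single-sex and thinned settings. The highest myeloid subcluster was the same in both libraries for 2 members in place of 7 without the subcluster with fibroblast genes. Itgav and Itgb8 were detected together, without thinning, in 24.5% and 29.2% of astrocyte-like, 8.82% and 10.9% of fibroblast-like and 1.94% and 2.47% of myeloid-like nuclei. Other alternatives left these counts within 1.5 times.

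Among the ratios past the fold that changed sign, Tgfbr1 between regions in excitatory-neuron-like nuclei of the cKO-labelled library was at -0.23. That was with nuclei carrying both female and male UMIs removed before clustering. Tgfb2 between libraries changed sign in osteoblast-lineage-like nuclei (-0.82 in females, -0.83 in males). Ltbp1 between regions did so in astrocyte-like nuclei of the cKO-labelled library (0.24 in the female). In excitatory-neuron-like nuclei of the control library, Ltbp1 (-0.0357 in the male) and Tgfb2 (-0.0607 at 1000 UMIs) between regions did so. The cause was not tested. Ltbp2 between libraries ranged from 0.66 to 1.89 in fibroblast-like nuclei over 13 alternatives, lowest at a clustering resolution of 0.5, and from -2.01 to -0.80 in astrocyte-like nuclei over 12. Parenchymal fibroblast-like, myeloid-like and astrocyte-like values rest on 32 to 51 nuclei per set.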
